A study of Mus musculus with 4 samples.

Results

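The miR-29 family is a group of 3 mouse miRNAs, mmu-miR-29a-3p, mmu-miR-29b-3p and mmu-miR-29c-3p, described here in exosome fractions released by differentiating 3T3-L1 cells. The members were chosen by name, and all 3 were among the 1881 mouse miRNAs on the array. 3T3-L1 is a mouse fibroblast-like line that turns into adipocytes under hormonal induction. The exosome fraction was pelleted from culture medium by ultracentrifugation, and its RNA, pooled from independent cultures of the same day, was read on single-colour (Cy3) arrays, 1 per day, at D0, D4, D12 and D16. The D0 medium came from cells kept in low-glucose growth medium with exosome-depleted fetal bovine serum, before induction. At D4 the cells had been for 2 days in high-glucose medium with the same serum, 1-methyl-3-isobutylxanthine, dexamethasone and insulin, and then in high-glucose medium with the serum and insulin. The D12 and D16 media came from cells kept further in that insulin medium, so that all later days share the induction. With a single array per day there is no replicate and no test between days, and every error given is the software's technical error within an array.

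The miR-29 miRNAs guide the silencing complex to messages for collagens, elastin and other matrix proteins, and low levels of the family are known from fibrotic tissue. They also target the de novo DNA methyltransferases. In adipocytes they are known for lowering insulin-stimulated glucose uptake when overexpressed.

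The mature sequences are shown because the 3 members share a seed and differ in few bases, which bears on how far probes can separate them. They are taken from RefSeq (GRCm38.p6), where all 3 were matched by name, and are printed 5′ to 3′ with the seed (bases 2 to 8) in capitals.
mmu-miR-29a-3p: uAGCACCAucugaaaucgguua
mmu-miR-29b-3p: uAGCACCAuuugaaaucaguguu
mmu-miR-29c-3p: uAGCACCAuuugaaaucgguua
Among the 1679 mature miRNA names in the table, these 3 were the names with that seed. With positions counted from 1 at the 5′ end, miR-29a-3p and miR-29c-3p differed by C10U alone. miR-29a-3p and miR-29b-3p differed by C10U, G18A, U21G and A22U, and miR-29b-3p is longer, with 23 bases against 22. How far a probe for one member also reads another was not tested.

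The members come from 4 hairpins in pairs on different chromosomes. In GRCm38.p6, Mir29a lies on the minus strand at chr6:31062660-31062747 and Mir29b-1 on the same strand at chr6:31063023-31063093, with 275 bases between them and no other gene of the RefSeq table over either. Mir29b-2 lies on the plus strand at chr1:195037040-195037120 and Mir29c at chr1:195037547-195037634, with 426 bases between them, and both lie within the span of the noncoding RNA gene A330023F24Rik. The hairpins of the miR-29b genes are printed with the mature 3p arm in capitals, because both give the same mature miRNA and the array signal of miR-29b-3p cannot be divided between them.
Mir29b-1: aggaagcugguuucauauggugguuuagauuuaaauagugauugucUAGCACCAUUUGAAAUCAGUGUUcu
Mir29b-2: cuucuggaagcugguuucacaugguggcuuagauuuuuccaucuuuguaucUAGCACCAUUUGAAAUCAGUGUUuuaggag

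Each member was read by 30 spots per array, 15 for each of 2 probes. The value for a miRNA is its total gene signal, the background-subtracted intensity summed over those probes that exceed 3 times their error, without scaling between arrays. The arrays differed in brightness and quality. The number of detected miRNAs was 329 (D0), 426 (D4), 406 (D12) and 380 (D16), and replicate spots of a probe varied by a median of 21.1% (coefficient of variation) at D0 against 7.19%, 7.78% and 8.07% on the later days. For this reason the ratios below are given with their values after scaling, and weight is placed on changes relative to other miRNAs of the same arrays, which a factor common to an array does not alter.

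miR-29a-3p was detected on all 4 arrays, and its signal intensity went from 96.2 ± 7.73 (D0) to 474 ± 36.9 (D4), then to 156 ± 12.4 (D12) and 111 ± 8.87 (D16). D4 stood above the other days by far more than the technical error, and D0 and D16 were the closest pair. By brightness it ranked 20 of 329 detected miRNAs (D0), 13 of 426 (D4), 35 of 406 (D12) and 34 of 380 (D16), a rank of signal and not of amount, since probes respond unequally.

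miR-29b-3p was also detected on every array, with signals of 29.6 ± 3.19 (D0), 162 ± 15.7 (D4), 30.9 ± 3.29 (D12) and 24.0 ± 2.56 (D16). The unscaled D0 and D12 signals differed by less than their technical errors, and D4 again stood apart from the other 3 days.

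miR-29c-3p was not detected at D0 and gave 24.4 ± 2.42 (D4), 18.4 ± 2.04 (D12) and 13.8 ± 1.58 (D16) later. At D0 the files list it at 0.1, the value for any miRNA that is not detected, while its probes summed to 4.04 ± 1.20 and a signal of up to 5.08, 3 times the summed error of its probes, could have gone undetected. Unless a ratio is said to rest on spots or on normexp, that bound is the D0 value of miR-29c-3p below, and the ratio is a lower bound for the total gene signal alone. Means of its spots, which include those not well above background, can lie under it. Of the 1552 miRNAs that were not detected at D0, 67 (4.32%) were detected on each of the later days, and miR-29c-3p was one of these.

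**Figure D1:**
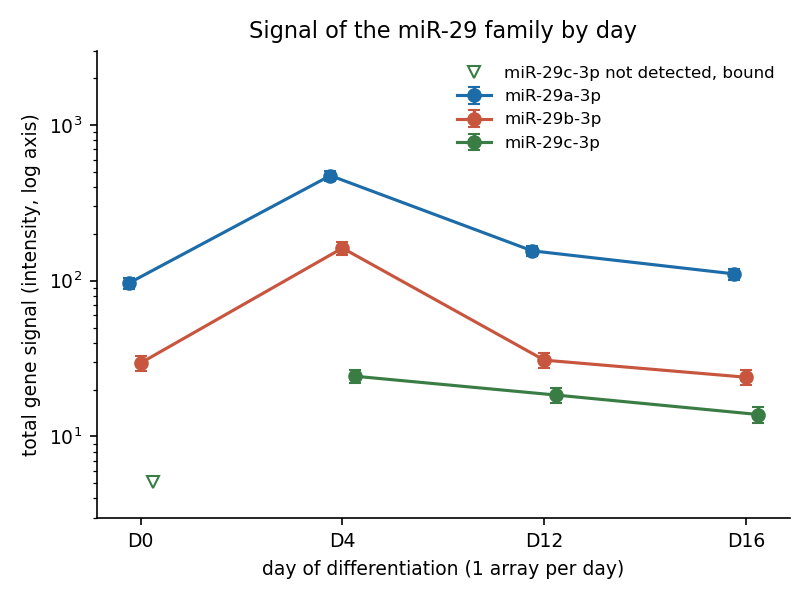
Total gene signal (intensity, log axis) of the miR-29 family on the arrays of D0, D4, D12 and D16, unscaled, with the technical error within each array as bars and an open triangle at the highest D0 signal of miR-29c-3p that could go undetected (5.08). All 3 members were highest at D4, at 474, 162 and 24.4, and with the 75th or 90th percentile as the scale miR-29c-3p was instead highest at D16.

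The spots behind these sums show where the unscaled readings of the arrays overlapped. For the brighter probe of miR-29b-3p the 15 spots, outliers included, ranged from 504 to 677 at D4, while they ranged from 95.5 to 239 (D0), 103 to 129 (D12) and 96.7 to 130 (D16) on the other days. Unscaled spots of D0, D12 and D16 thus overlapped and those of D4 lay apart, although division by the 75th percentile factor of D4 (4.26) would put the D4 spots within the range of D0. That factor comes from total gene signals, which include an effective spot size (0.6 at D0, 0.780 at D4) that spot intensities lack. Its use on spots is therefore only a rough guide. The dimmer probe of miR-29b-3p passed the detection rule at D4 alone, with 8 of 15 spots well above background, and entered the sum on that day only.

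Both probes of miR-29a-3p had 15 of 15 spots well above background on every array. Its brighter probe ranged from 1161 to 1363 at D4 and from 377 to 485 at D12. The D12 spots overlapped those of D0, which ranged from 183 to 392 with 2 outliers included. The lowest D0 spot not marked as an outlier was at 304. Divided by the same factor, the D4 spots would lie within the D0 range only with those outliers counted, and in part below 304. The spread of spots within an array is no measure of the difference between days. Neither probe of miR-29c-3p had a spot well above background at D0, and both had 15 of 15 on the later days. Its brighter probe ranged from 5.33 to 18.8 at D0, 44.5 to 56.4 (D4), 28.0 to 46.8 (D12) and 30.4 to 43.2 (D16), and its D4 and D12 spots overlapped.

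**Figure D2:**
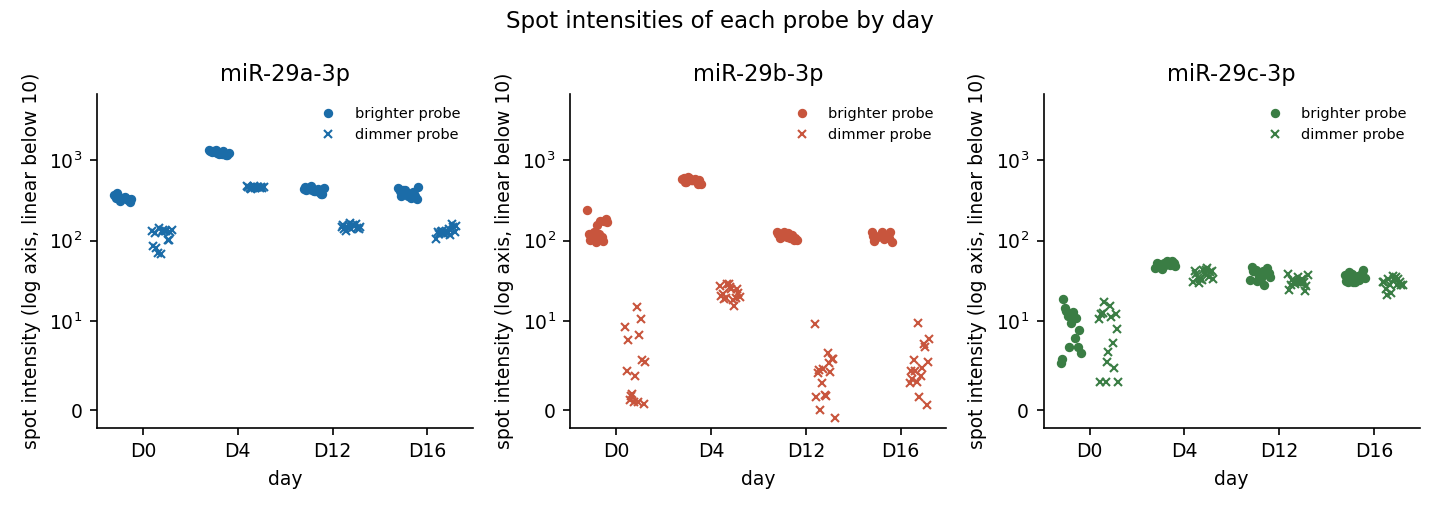
Background-subtracted, unscaled intensity (log axis, linear below 10) of each spot of the brighter and the dimmer probe of miR-29a-3p, miR-29b-3p and miR-29c-3p by day, without spots the software marked as outliers. The D4 spots of the brighter miR-29b-3p probe (504 to 621) lie above those of every other day, and the dimmer one is near background except at D4.

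From D0 to D4 the signal of miR-29a-3p was 4.92-fold (± 0.551) and that of miR-29b-3p 5.47-fold (± 0.794) as high, and the total gene signal of miR-29c-3p was at least 4.80-fold higher, with 4.64 from the mean of its spots and 3.66 from those on the right of the arrays. Past 2-fold were thus both members detected on the 2 days, but so were 62.1% of the 317 miRNAs detected on both, and the median miRNA was at 2.47. Against that median, miR-29a-3p was higher by 1.00 and miR-29b-3p by 1.15 on the log2 scale. Among the 317, miR-29a-3p ranked 247 and miR-29b-3p 257 counted from the lowest ratio.

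The size of the D4/D0 ratio depended on the scaling, although it stayed above 1 under each one tried. The 4 spike-in RNAs added to every sample were brighter at D4 by 1.83-fold, and after scaling by them the ratio was 2.69 for miR-29a-3p, 2.99 for miR-29b-3p and at least 2.63 for miR-29c-3p. With the 75th percentile of those miRNAs that every array detected as the scale, the lowest case for miR-29a-3p and miR-29c-3p, the values were 1.16, 1.28 and at least 1.13. miR-29b-3p was lowest after quantile normalization, at 1.22. Averaged over the same spots on every day, a choice made after seeing the data, the miR-29a-3p ratio was 5.02 from spots on the left of the arrays (1 of the brighter and 6 of the dimmer probe) and 3.62 from those on the right (12 and 7), so the sides also weigh the probes differently.

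From D4 to D12 miR-29a-3p and miR-29b-3p fell to under 0.5 of their signal under each scaling. As deposited, miR-29c-3p was lower by about 2 technical errors (-0.40 ± 0.21 on the log2 scale), and its ratio was near 1 after scaling by a percentile. The D12/D4 ratio was 0.329 ± 0.0366 for miR-29a-3p, 0.191 ± 0.0274 for miR-29b-3p and 0.756 ± 0.112 for miR-29c-3p. Below 0.5 were 2 of the 3 members, against 15.0% of the 374 miRNAs detected on both days. Counted from the lowest ratio, miR-29b-3p ranked 8, miR-29a-3p 24 and miR-29c-3p 111 of the 374.

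The fall of miR-29a-3p and miR-29b-3p held under each scaling tried. The median miRNA changed from D4 to D12 by -0.21 on the log2 scale as deposited and by 0.16 after scaling by the 75th percentile, and relative to that median miR-29a-3p fell by 1.40, miR-29b-3p by 2.18 and miR-29c-3p by 0.19 in either case. After the 75th percentile the ratios were 0.426 for miR-29a-3p and 0.247 for miR-29b-3p, with 8.56% of the miRNAs below 0.5, and miR-29c-3p was at 0.979. The highest values were 0.489 for miR-29a-3p, after quantile normalization, and 0.348 for miR-29b-3p, after normexp background correction. Over the probe of miR-29b-3p that was detected on both days the ratio was 0.198, and the probes of miR-29a-3p gave 0.334 and 0.313.

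**Figure D3:**
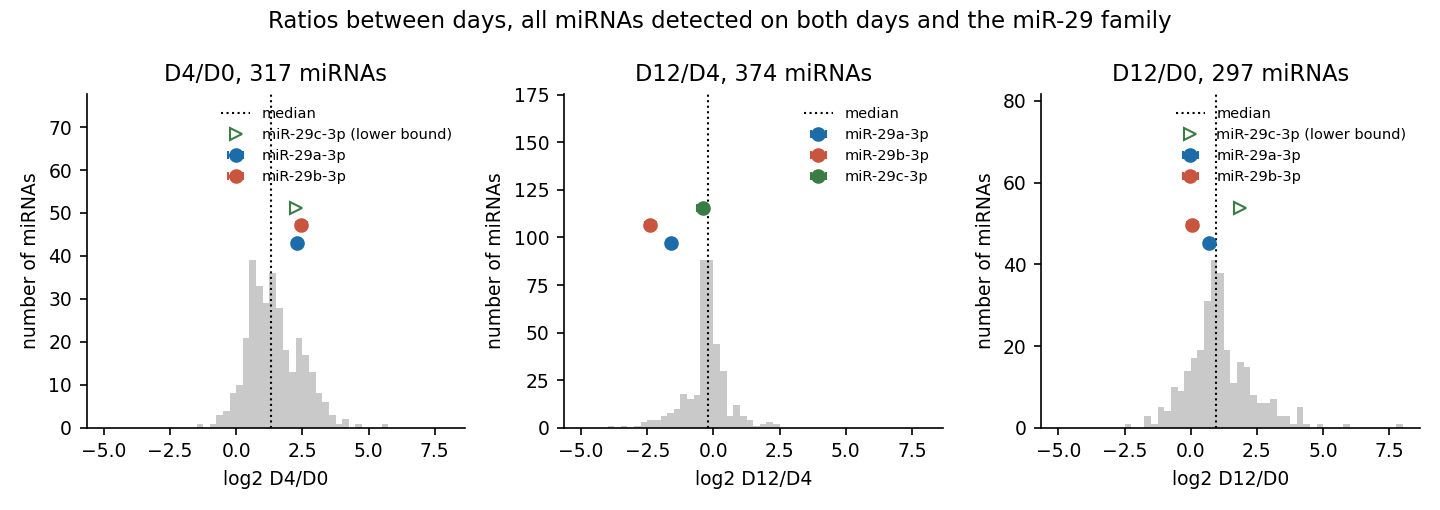
Histograms of the log2 ratio over all miRNAs detected on both days for D4/D0 (317), D12/D4 (374) and D12/D0 (297), unscaled, with the median as a dotted line and the members as points above (their height has no meaning, bars are technical errors, open triangles are lower bounds). In D12/D4, miR-29b-3p at -2.39 and miR-29a-3p at -1.61 lie in the lower tail and miR-29c-3p at -0.40 near the median.

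The day of the highest signal depended on the scaling for miR-29c-3p and not for the other members. miR-29a-3p and miR-29b-3p were highest at D4 as deposited, like 74.2% of the 283 miRNAs detected on all 4 arrays. After scaling by the 75th percentile, 11.7% of the 283 were highest at D4, and both members were among these 33. Both were also highest at D4 with the 90th percentile as the scale and with quantile normalization, like 18.4% of the 283 in either case, and with the spike-in RNAs, like 53.7%. miR-29c-3p was highest at D4 as deposited, with the spike-in RNAs, the effective spot size and quantile normalization, and at D16 with either percentile.

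For D12 against D0 the direction depended on the scaling. The unscaled D12/D0 ratio was 1.62 ± 0.183 for miR-29a-3p and 1.04 ± 0.158 for miR-29b-3p, and the total gene signal of miR-29c-3p was at least 3.63-fold higher, with 3.60 from the mean of its spots and 2.79 from those on the right. As deposited, none of the measured ratios was above 2, where 47.8% of 297 miRNAs lay, and none was below 0.5, where 3.37% lay. With the spike-in RNAs as the scale miR-29a-3p was at 0.936 and miR-29b-3p at 0.604, and after the 75th percentile they were at 0.491 and 0.317, with 38.4% of all miRNAs then below 0.5. With the same spots on every day, those on the left of the arrays put miR-29b-3p at 1.03 and those on the right at 0.591, so the ratio of miR-29b-3p fell on either side of 1 with the part of the arrays used. The parts hold different spots of its 2 probes, and the share of this and of the uneven D0 array in the difference was not tested.

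Relative to the median miRNA, from D0 to D12 miR-29a-3p was lower by a log2 difference of -0.24 and miR-29b-3p by -0.87, while miR-29c-3p was higher by at least 0.92. These differences do not change with a factor common to an array. Quantile normalization, which is not such a factor, gave -0.06, -1.35 and at least 0.92. The bound of miR-29c-3p was above 1 under each scaling and was lowest, at 1.103, with the 75th percentile.

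**Figure D4:**
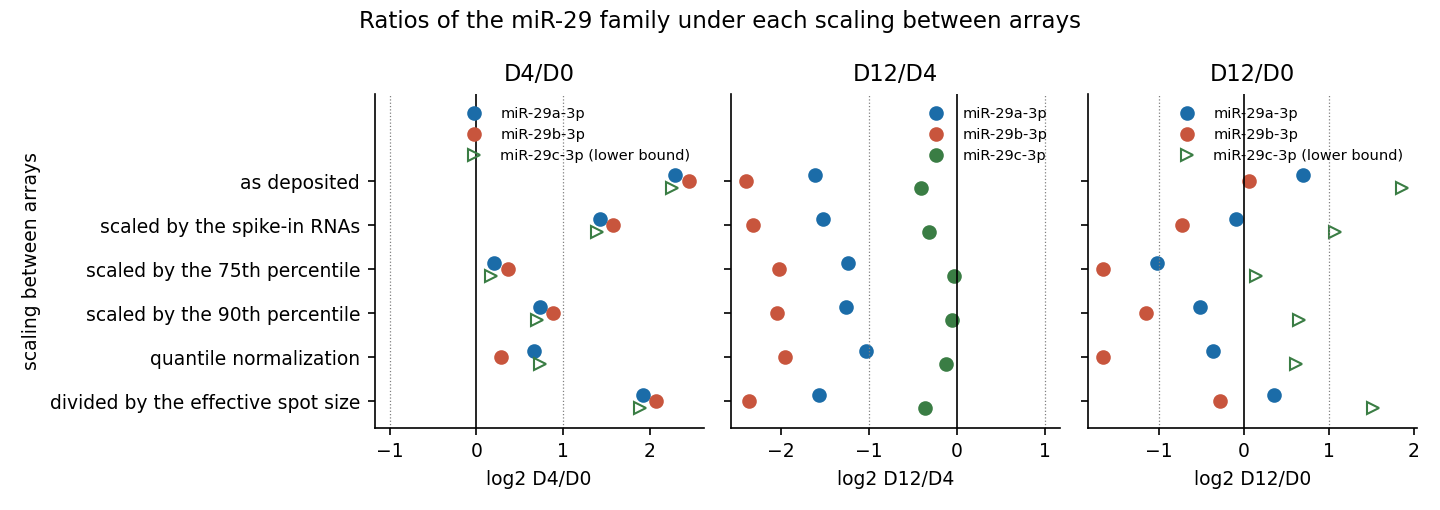
Log2 ratio of each member for D4/D0, D12/D4 and D12/D0 (solid line at 0, dotted lines at 2-fold) under each scaling between arrays, with open triangles for lower bounds. In D12/D4 miR-29a-3p and miR-29b-3p stay below 0.5-fold under every scaling, while in D12/D0 both move from above 1 as deposited (1.62 and 1.04) to below 1 with the spike-in RNAs as the scale (0.936 and 0.604).

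From D12 to D16 the members changed together. The D16/D12 ratio was 0.711 ± 0.0803 for miR-29a-3p, 0.777 ± 0.117 for miR-29b-3p and 0.750 ± 0.119 for miR-29c-3p, and 0 of the 3 were below 0.5, against 7.28% of 371 miRNAs. The median miRNA was at 0.703, so that this step was close to the change in brightness of the whole array. With signals divided by their effective spot size (a default at D16, an estimate at D12), the ratios were 0.900, 0.983 and 0.950, and after scaling by the 75th percentile all 3 were above 1, at 1.03, 1.13 and 1.09.

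Relative to D0, the D16 signal was 1.15 ± 0.131 for miR-29a-3p and 0.810 ± 0.123 for miR-29b-3p, and miR-29c-3p was at least 2.72-fold higher, while the median miRNA was at 1.32. Above 2 was 0 of the 2 measured members, against 31.1% of 289 miRNAs. miR-29a-3p was below its D0 signal when the spike-in RNAs (0.901) or the 75th percentile (0.508) set the scale, so its direction was again set by the scaling.

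Changes between members of the same arrays are free of that choice, apart from quantile normalization. From D0 to D4 the log2 change of miR-29b-3p minus that of miR-29a-3p was 0.15 ± 0.26, within the error, and its sign was not stable. It was -0.38 after quantile normalization and -0.37 with normexp, or -0.24 with normexp over the same spots. Spots on the left and right of the arrays, partly unlike between days, gave -0.30 and -0.60, both larger than the error. With the same spots on every day the left gave 0.02 and the right -0.26, about the size of the error. From D4 to D12 miR-29b-3p fell by 0.79 (± 0.26) more than miR-29a-3p, about 3 times the error. Normexp, which adds an offset of 50 to every spot, left a difference of -0.10, or -0.16 with the same spots on every day. From D0 to D12 the difference was -0.63 ± 0.27, with -1.29 after quantile normalization and, over the same spots on every day, -0.69 on the left and -1.06 on the right of the arrays.

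From D4 to D12 miR-29c-3p changed relative to miR-29a-3p in the opposite direction to miR-29b-3p. The signal of miR-29c-3p was higher relative to miR-29a-3p by 1.20 ± 0.27 on the log2 scale, or 2.30-fold, over 4 times the error. The values lay between 0.91 (quantile normalization) and 1.27 (normexp). From D0 to D12 the difference was at least 1.17 as deposited and at least 0.98 after quantile normalization. It fell to 0.08 with normexp, or 0.13 with the same spots. From D12 to D16 neither miR-29b-3p, with 0.13 ± 0.27, nor miR-29c-3p, with 0.08 ± 0.28, differed from miR-29a-3p beyond the error. miR-29c-3p and miR-29a-3p, which differ by C10U, thus changed unequally over the same arrays.

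**Figure D5:**
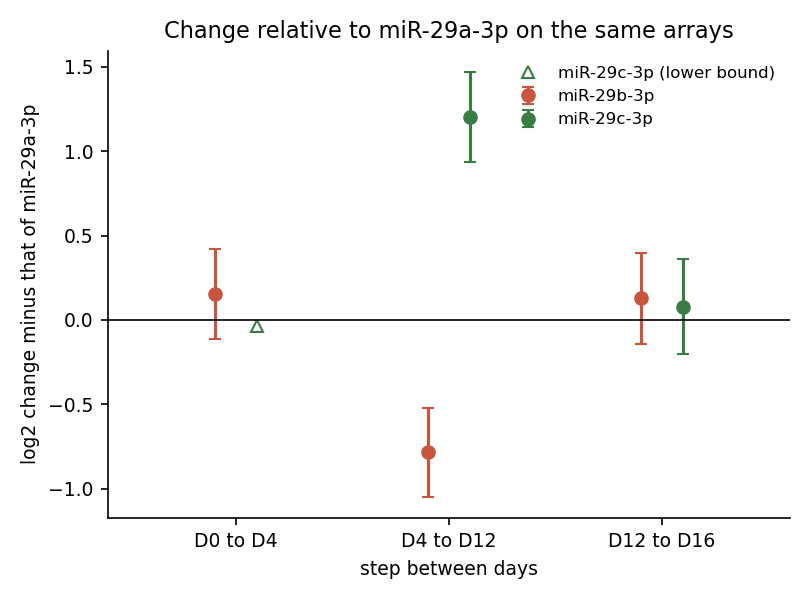
Log2 change of miR-29b-3p and miR-29c-3p minus that of miR-29a-3p on the same arrays for each step between consecutive sampled days, with propagated technical errors and an open triangle for the lower bound of miR-29c-3p. The step from D4 to D12 separates them, with -0.79 for miR-29b-3p and 1.20 for miR-29c-3p, and in the other 2 steps shown the bars of measured values cross 0, with the sign of miR-29b-3p from D0 to D4 turning after quantile normalization.

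The opposite arms of the hairpins were not detected. miR-29a-5p, miR-29b-1-5p, miR-29b-2-5p and miR-29c-5p were read by 12 probes and 120 spots per array, and over the 4 arrays 0 of 480 spot readings were well above background. The highest ratio of a probe signal to its error was 1.88, for miR-29a-5p, below the 3 that detection requires. The 5p arms, which differ between the miR-29b genes, therefore gave no value that could tell Mir29b-1 and Mir29b-2 apart.

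The pattern most like each member was sought among the miRNAs detected on all 4 arrays, by the SD over days of the log2 ratio of the signals. For miR-29a-3p the nearest were miR-690 (0.21), miR-5119 (0.23), miR-6538 (0.26), miR-202-3p (0.27) and miR-3473g (0.31), against a median of 0.74 over 282 miRNAs. For miR-29b-3p they were miR-690 (0.26), miR-6538 (0.31), miR-188-5p (0.33), miR-1904 (0.33) and miR-7036a-5p (0.34), against a median of 1.04. miR-690 and miR-6538 were near both members. miR-29a-3p stood at 7 in the list of miR-29b-3p, which in turn stood at 12 in the list of miR-29a-3p. With D0 left out, 1 of the 5 nearest miRNAs was kept for either member, so these lists rest on the D0 array.

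Over the 3 days on which it was detected, miR-29c-3p was closest to miR-6962-3p (0.01), miR-669c-3p (0.03), miR-342-3p (0.03), miR-1947-3p (0.03) and miR-6945-3p (0.03). The median over 283 miRNAs was 0.21, so many miRNAs followed the same course over these days. miR-29a-3p and miR-29b-3p stood far down that order, at 257 and 274 of 283.

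To compare, 3 lists of miRNAs with related roles were set beside the family. Of the 10 miRNAs known from fibrosis, 6 were detected at both D4 and D12, and 1 of the 6 had a D12/D4 ratio below 0.5 as deposited, against 15.0% of all miRNAs. This was miR-21a-5p, a miRNA raised in fibrotic tissue, with 797 at D4 and 346 at D12, a ratio of 0.434 that became 0.562 after scaling by the 75th percentile. The median of the list was 0.900, beside 0.865 over all 374 miRNAs. miR-214-3p was at 0.519 and miR-199b-5p at 1.26. From D0 to D4 all 4 list members detected on both days were above 2 as deposited, against 62.1% of all miRNAs, with a median of 8.39 beside 2.47, and after the 75th percentile 2 of 4 were above 2, against 6.62%.

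Of the 9 miRNAs known from insulin action and glucose handling, 8 were detected at D4 and D12, and 0 of the 8 were below 0.5 from D4 to D12, against 15.0% of all miRNAs, where miR-29a-3p was at 0.329. From D0, 5 were detected on both days and 5 of 5 were above 2 as deposited at D4 (median 8.97, against 62.1% of all miRNAs) and at D12 (median 11.7, against 47.8%), and 3 of 5 after the 75th percentile in either case, against 6.62% and 10.1%. Their D12/D4 median was 1.13, and 1, the endothelial miR-126a-3p, was above 2, at 4.04, against 4.81% of all miRNAs. miR-103-3p, described as lowering insulin sensitivity, had a ratio of 1.06, and let-7a-5p of 1.30. The miRNAs known to target DNA methyltransferases, as the miR-29 family does, numbered 5 (miR-143-3p stands in this list and the one before), of which 0 were detected at D0, 4 at D4 and 5 at D12 and D16. Over the 4 detected at D4 and D12 the median D12/D4 ratio was 1.59, and all were above 1 under each scaling, as were 29.4% of all miRNAs as deposited and 68.2% after the 75th percentile. miR-152-3p was at 1.62 and miR-101a-3p at 3.55. These are counts and medians of single arrays and carry no test.

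Markers were read for the cells the fraction could come from. Of 7 mesenchymal miRNAs 5 were detected at D0 and 6 on the later days, with a summed signal of 260 (D0), 1807 (D4), 1219 (D12) and 846 (D16), led by miR-21a-5p at D0 and D4 and by miR-199a-3p later. miR-145a-5p was not detected on any day. None of the 6 epithelial or 6 striated muscle miRNAs was detected on any array.

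Red blood cell miRNAs rose from D4 to D12, the step over which miR-29a-3p and miR-29b-3p fell. Their summed signal over 3 markers was 9.40 (D0), 468 (D4), 2524 (D12) and 1649 (D16), with 1 of 3 detected at D0 and 3 of 3 later, and miR-451a the brightest. All 3 had a D12/D4 ratio above 2, the lowest at 4.07 as deposited, under each scaling, against 4.81% of all miRNAs as deposited and at most 11.2%, after quantile normalization. Of the 4 leukocyte miRNAs 0 were detected at D0, 1 at D4 and 3 at D12 and D16, with sums of 16.9 (D4), 85.6 (D12) and 59.3 (D16), led by miR-223-3p, and miR-150-5p was not detected. The liver miRNA miR-122-5p was detected at D12 and D16, at 6.26 and 4.13. The cultures were of 3T3-L1 cells in medium with exosome-depleted fetal bovine serum, and the source of these blood and liver miRNAs was not tested. Whether RNA of that source also adds to the signals of the miR-29 family was not tested either.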

How the data were processed

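The authors deposited single-colour intensity values from Agilent Feature Extraction 11.0.1.1, with the local background subtracted and no scaling between arrays. The total gene signal sums probes above 3 times their error, which was checked to give all 7524 detection calls, and includes an effective spot size, which was a default of 0.6 for D0 and D16 and an estimate for D4 and D12. Ratios between days were computed from it in Python 3.11.15, without scaling, with technical errors propagated. All 4 arrays shared a slide, so day and array position cannot be told apart. The arrays were compared without a test, and their number limits the precision. Alternatives were 4 scalings, the effective spot size, other sums of probes and spots, sides of the array, and normexp (offset 50, limma 3.58.1) on median spot signals. Spot means over the same spots on every day were added after seeing the data. The miRNAs named are the members, their opposite arms, the 5 nearest patterns (for miR-29c-3p over the 3 days with a signal) and members of the lists. The members and lists were chosen with earlier results of these data known. The percentile scaling, quantile normalization, 2-fold calls and search for nearest patterns were tested on simulated data in which every miRNA was detected. The other steps, among them the bound of miR-29c-3p and the propagated errors, were not.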

Additional observations from a re-analysis of the deposited data

How the results depend on the processing

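The values that moved are given by setting, for miR-29a-3p, miR-29b-3p and miR-29c-3p in that order, with miR-29c-3p against D0 a lower bound of the total gene signal under the scalings and with the effective spot size, and a ratio to its measured D0 signal under the other settings. Scaled by the spike-in RNAs, D4/D0 was 2.69, 2.99 and 2.63 and D12/D0 0.936, 0.604 and 2.10, with 29.0% of miRNAs above 2 in D4/D0 and 11.4% below 0.5 in D12/D0. Scaled by the 75th percentile, D4/D0 was 1.16, 1.28 and 1.13, D12/D0 0.491, 0.317 and 1.103 and D12/D4 0.426, 0.247 and 0.979, and the percentages were 6.62% above 2 in D4/D0 and, below 0.5, 38.4% in D12/D0 and 8.56% in D12/D4. Scaled by the 90th percentile, D4/D0 was 1.66, 1.85 and 1.62, D12/D0 0.697, 0.450 and 1.56 and D12/D4 0.419, 0.243 and 0.964, with 14.5%, 20.5% and 8.56%. After quantile normalization, D4/D0 was 1.59, 1.22 and 1.66, D12/D0 0.775, 0.316 and 1.53 and D12/D4 0.489, 0.259 and 0.920, with 11.7% above 2 in D4/D0 and 25.9% below 0.5 in D12/D0, and on the log2 scale miR-29b-3p changed relative to miR-29a-3p by -1.29 from D0 to D12 and miR-29c-3p by 0.91 from D4 to D12. Divided by the effective spot size, D4/D0 was 3.79, 4.21 and 3.69 and D12/D0 1.28, 0.824 and 2.87. With the mean of spot signals, miR-29a-3p was at 4.06 in D4/D0 and 1.35 in D12/D0, miR-29b-3p at 3.93 and 0.821, and miR-29c-3p changed by 1.42 relative to miR-29a-3p from D0 to D12. With normexp, whose offset pulls low signals together, D4/D0 was 3.35, 2.58 and 1.46, D12/D0 was 1.25 for miR-29a-3p and 1.32 for miR-29c-3p, and D12/D4 was 0.374, 0.348 and 0.904. The change relative to miR-29a-3p was then -0.10 for miR-29b-3p from D4 to D12 and 0.0816 for miR-29c-3p from D0 to D12, and that of miR-29b-3p from D4 to D16 changed sign, from -0.66 to 0.0418. The mean of spot signals, normexp and the next values average partly unlike spots on different days, because outliers were left out per array. Spots on the left of the arrays gave 6.26 for miR-29a-3p and 6.51 for miR-29c-3p in D4/D0, 2.09 and 5.16 in D12/D0, and -1.02 for miR-29b-3p relative to miR-29a-3p from D0 to D12. Spots on the right gave 3.80, 2.51 and 3.66 in D4/D0, 1.25, 0.578 and 2.79 in D12/D0 and 0.230 for miR-29b-3p in D12/D4, and miR-29b-3p changed relative to miR-29a-3p by -1.12 from D0 to D12 and by -0.52 from D4 to D12. After seeing the data, the spot means were repeated over the same spots on every day. All such spots then gave 3.82 and 4.27 for miR-29a-3p and miR-29b-3p in D4/D0, 1.29 and 0.857 in D12/D0, and 1.48 for miR-29c-3p relative to miR-29a-3p from D0 to D12. Those on the left gave 6.51 and 5.16 for miR-29c-3p in D4/D0 and D12/D0 and 1.64 relative to miR-29a-3p from D0 to D12, with 1 spot of the brighter probe among 7 for miR-29a-3p. Those on the right gave 3.62, 3.02 and 3.66 in D4/D0, 1.23, 0.591 and 2.79 in D12/D0 and -1.06 for miR-29b-3p relative to miR-29a-3p from D0 to D12, while from D4 to D12 that change was -0.79. Normexp over the same spots gave 3.19, 2.70 and 1.46 in D4/D0, 1.21 for miR-29a-3p and 1.32 for miR-29c-3p in D12/D0, 0.381, 0.342 and 0.904 in D12/D4, -0.155 for miR-29b-3p relative to miR-29a-3p from D4 to D12 and 0.128 for miR-29c-3p from D0 to D12, and the change of miR-29b-3p from D4 to D16 was -0.04. With all probes summed, miR-29c-3p was at 6.03 in D4/D0, 4.56 in D12/D0 and 1.50 relative to miR-29a-3p from D0 to D12. A further 99 values stayed within the technical error of the ratio or change or, for percentages, within 1.5 times, and of the less central values 139 stayed within such limits and 131 did not, apart from the 1 that changed sign after lying past 2 errors. Counted without regard to size, 15 of 133 ratios of D4/D0, D12/D0 and D12/D4, all of them D12/D0, and 19 of 134 ratios with D16 lay on the other side of 1, as did 0 of 59 and 16 of 118 changes relative to miR-29a-3p on the other side of 0. Where the setting itself does not show it, the cause was not tested. Probes shared between days gave no value for miR-29c-3p against D0, since none was detected at D0, and leaving out D0 changed nothing for its nearest patterns, which already left it out. No paired analysis was possible because each day has 1 array. The limits are the single array per day, the uneven D0 array and the unknown scaling between arrays, so no difference between days can be set against variation between cultures.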
